A study of Homo sapiens with 6 samples.

Results

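Immediate early genes are the genes that cells switch on first after serum, growth factors or stress, without making new protein, and AP-1 is the family of paired transcription factors that many of them encode. The 33 genes described here were taken from a list of symbols: the FOS and JUN families, their partners ATF3 and MAFF, the EGR, NR4A and KLF factors, the IER genes, feedback and mRNA decay regulators, and 5 other regulators of early transcription. Of the 18318 genes kept from the count table, 32 matched a listed symbol through the Ensembl identifier in GENCODE 29 (build GRCh38), and EGR2 was not analysed here. EGR3 had between 2 and 10 counts in each library, too few for the test, which left 31 tested genes of 12797.

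The study asked which genes the long non-coding RNA SLNCR regulates in A375, an established human melanoma line with an activating BRAF mutation. Both groups were A375 cells grown in DMEM with 10% serum, transfected by a lipid reagent with a pcDNA3.1 plasmid that carries puromycin resistance and a CAG promoter, and kept in 2 µg/mL puromycin for 48 h. The groups differed in the insert, which was SLNCR in 3 libraries and absent (empty vector) in 3, and both therefore went through the same transfection and drug selection. The cells were thus in serum and under selection when RNA was taken, and the sources used here name no further stimulus. RNA was depleted of ribosomal RNA and sequenced in bulk, so that fewer cells expressing a gene and less RNA per cell cannot be told apart.

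FOS and JUN proteins bind DNA as pairs through leucine zippers, and FOS proteins need a JUN partner. EGR1, FOS and other members have upstream CArG boxes, where the serum response factor SRF sits with ETS-type co-factors that are phosphorylated by ERK. Their mRNAs are mostly short-lived, because AU-rich elements in the 3′ end recruit decay factors such as ZFP36, and DUSP1 dephosphorylates the kinases that induced them. In BRAF-mutant melanoma cells ERK is constantly active, and FOSL1 is a well-known target of that pathway.

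SLNCR (LINC00673) counts, which take in the cells' own transcript as well as the plasmid's, were 195, 194 and 193 with the empty vector and 1786, 2569 and 2040 with its plasmid, a log2 fold change of 3.38. The table held between 9287450 and 10822083 counts per library, and libraries of 1 group differed by more than counting noise. The labels call the cells epithelial. Of 12 keratinocyte and epithelial markers, KRT5, KRT14, KRT1, KRT19, EPCAM, CDH1 and TP63 were all below 1 CPM (counts scaled to a common library size by TMM factors), and none was at 0 in every library. The other 5 were higher with the empty vector, KRT18 at 384 CPM, KRT8 at 181, DSP at 44.3, KRT10 at 27.9 and CLDN4 at 4.55. Among melanocyte markers with the empty vector, MITF stood at 85.4 CPM, SOX10 at 13.4 and PAX3 at 12.9, whereas MLANA was at 1.52 and PMEL, TYRP1 and DCT were below 1.

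The upstream sequences of 5 members are shown because the genes differ in what lies there: serum response elements in EGR1 and SRF, the letters TATAAA in FOSB, a cAMP response element in JUND, and no exact match to any of these letters in IER5. Each is the 250 bases before the RefSeq start (GRCh38.p14), 5′ to 3′ on the strand of the gene. Capitals mark CArG boxes in EGR1 and SRF, TATAAA in FOSB and TGACGTCA in JUND.
EGR1: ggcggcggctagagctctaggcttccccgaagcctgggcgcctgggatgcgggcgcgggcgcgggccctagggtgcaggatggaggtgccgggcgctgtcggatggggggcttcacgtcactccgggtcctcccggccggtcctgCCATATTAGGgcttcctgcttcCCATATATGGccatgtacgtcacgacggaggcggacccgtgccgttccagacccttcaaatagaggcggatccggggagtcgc
SRF: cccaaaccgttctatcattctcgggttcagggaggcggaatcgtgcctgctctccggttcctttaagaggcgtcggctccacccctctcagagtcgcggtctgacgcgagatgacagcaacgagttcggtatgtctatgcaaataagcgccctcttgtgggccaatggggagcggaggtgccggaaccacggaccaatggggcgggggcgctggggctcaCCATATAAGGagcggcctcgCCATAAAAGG
FOSB: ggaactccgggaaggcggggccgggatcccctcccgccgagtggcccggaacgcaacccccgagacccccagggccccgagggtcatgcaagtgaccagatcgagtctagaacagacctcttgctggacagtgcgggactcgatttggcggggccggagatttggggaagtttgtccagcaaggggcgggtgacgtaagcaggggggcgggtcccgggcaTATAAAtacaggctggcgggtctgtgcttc
JUND: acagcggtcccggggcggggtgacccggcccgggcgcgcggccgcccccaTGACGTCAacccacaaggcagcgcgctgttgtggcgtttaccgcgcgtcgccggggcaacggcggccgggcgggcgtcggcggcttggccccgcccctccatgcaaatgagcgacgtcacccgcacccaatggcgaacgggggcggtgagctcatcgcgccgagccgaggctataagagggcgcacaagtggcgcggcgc
IER5: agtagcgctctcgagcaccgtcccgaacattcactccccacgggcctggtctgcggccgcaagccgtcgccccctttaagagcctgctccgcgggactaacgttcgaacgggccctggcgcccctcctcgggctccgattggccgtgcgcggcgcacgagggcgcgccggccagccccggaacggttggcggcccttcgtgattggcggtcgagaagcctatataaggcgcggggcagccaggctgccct
They lie at chr5:138465229-138465478 on the plus strand (EGR1), chr6:43171019-43171268 on the plus strand (SRF), chr19:45467746-45467995 on the plus strand (FOSB), chr19:18281623-18281872 on the minus strand (JUND) and chr1:181088450-181088699 on the plus strand (IER5). The CArG boxes of EGR1 begin 105 and 83 bases before the start and those of SRF 30 and 10 bases before it.

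RefSeq windows of 250 bases before to 50 after the start were found for 25 of the listed genes, EGR2 among them. The 25 windows had a median GC content of 68.0%, against 58.3% over 27305 gene windows. CArG boxes were searched on both strands and occurred in 2 of the 25 (EGR1 and SRF), or 8%, against 1.29% of all windows. The cAMP response element TGACGTCA, on both strands, occurred in 3 (DUSP1, JUND and MAFF), or 12%, against 1.98%. The AP-1 letters TGANTCA, on both strands, were found in 1 (FOSL2), or 4%, against 7.76% of all windows. The EGR letters GCGGGGGCG or GCGTGGGCG, on both strands, were in 3 (KLF2, KLF6 and SRF), or 12%, against 5.7%, and GGGCGG, which can overlap them, was in 18 of 25 (72%) against 44.6%. TATAAA on the gene's strand was in 4 (DUSP1, FOS, FOSB and JUNB), or 16%, against 7.71%. FOS had no CArG match in its window. Only 1 window per gene was searched, so other starts and sequence further upstream were not covered. These are matches of letters, and binding was not measured.

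In the comparison of SLNCR with the empty vector, 10 of the 31 tested genes fell and 0 rose (edgeR quasi-likelihood test, Benjamini-Hochberg adjusted over 12797 genes, threshold 0.05). The genes that fell were FOS, FOSB, FOSL1, FOSL2, JUN, JUND, KLF2, IER2, IER5 and SRF, all by small amounts, between -0.15 and -0.43 on the log2 scale. Of all tested genes 7.67% were called lower and 8.84% higher, so the members' 32.3% lower stood above that background. At an unadjusted p below 0.05, 13 members were lower and 2 higher (NR4A3 and CITED2), against 34.8% of all tested genes in either direction. DESeq2 called 7 members lower and 0 higher, against 7.52% and 9.54% of the genes it tested, and limma-voom called 10 lower and 0 higher, against 8.21% and 8.5%. In 14 of the 31 genes every SLNCR library lay below every empty vector library, against 19.1% of all tested genes, and these were the 10 plus ATF3, NR4A2, KLF4 and ZFP36. In 2 genes, NR4A3 and CITED2, every SLNCR library lay above, against 19.7% of all tested genes. The log2 fold change was below 0 in 23 members and in 51.2% of all tested genes. Its median was -0.15 over the members and -0.01 over all tested genes.

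The count varied with the libraries compared. Without SLNCR 2 the same 10 were called lower, against 12.8% of all tested genes, and without empty vector 3 there were 9, against 6.74%. Those 9 included ATF3 and left out JUND and SRF. Without empty vector 1, empty vector 2 or SLNCR 1, edgeR called 0 members and 0.00775%, 0.0154% and 0.00777% of all tested genes. Members with an unadjusted p below 0.05 numbered 12, 12 and 13 lower and 0, 2 and 1 higher in these fits. The matching shares of all tested genes, in either direction, were 22.9%, 26.7% and 28.4%. Without SLNCR 3 it called 6 lower (FOSB, FOSL2, JUN, KLF2, IER2 and IER5), against 5.45% of all tested genes. The median log2 fold change of the members was -0.14, -0.14 and -0.16 without empty vector 1, empty vector 2 or SLNCR 1, and -0.12 without SLNCR 3. A correction for transcript GC content, described after the single genes, also left 0.

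In the FOS family 4 of 4 members fell, with FOSL1 above 0 once GC content was corrected for. FOSB (ENSG00000125740, chr19:45467995-45475179) had 50.5, 54.2 and 44.1 CPM with the empty vector and 39.45, 38.3 and 32.0 with SLNCR. The groups did not overlap, and the log2 fold change was -0.43 (SE 0.0933, adjusted p = 0.0139 by edgeR). FOSB lies within the interval of ERCC1, a DNA repair gene on the opposite strand with 1114 counts on average and a log2 fold change of -0.20 (adjusted p = 0.0391 by edgeR). Whether the counting used strand is not given in the sources used here, so reads of the pair may not be told apart.

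FOS (ENSG00000170345, chr14:75278774-75282230), the classic serum-induced member, had 36.9, 40.2 and 35.6 CPM with the empty vector and 32.4, 31.2 and 29.6 with SLNCR. The highest SLNCR library was below the lowest control, and the log2 fold change was -0.27 (SE 0.0828, adjusted p = 0.0356 by edgeR). FOSL1 and FOSL2 encode the FRA proteins, which lack the strong activation domain of FOS and persist longer. FOSL2 (ENSG00000075426, chr2:28392448-28417312) had 236, 232 and 215 CPM with the empty vector and 199.5, 202 and 179 with SLNCR, a log2 fold change of -0.24 (SE 0.0597, adjusted p = 0.0185 by edgeR). FOSL1 (ENSG00000175592, chr11:65892049-65900573) had 530.1, 537 and 500.5 CPM with the empty vector and 468, 492 and 449 with SLNCR. Its groups were also apart, by a narrow margin, and its log2 fold change of -0.15 (SE 0.0498, adjusted p = 0.0444 by edgeR) was the smallest among the 10.

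In the JUN family 2 of 3 members fell, JUN and JUND, of which JUND was above 0 after the GC correction. JUN (ENSG00000177606, chr1:58780788-58784327), a single-exon gene and the main partner of FOS, had 49.7, 41.2 and 40.5 CPM with the empty vector and 33.5, 38.0 and 26.4 with SLNCR. SLNCR 3 was the lowest and SLNCR 2 came close to the controls. The log2 fold change was -0.42 (SE 0.116, adjusted p = 0.0265 by edgeR). JUND (ENSG00000130522, chr19:18279760-18281622), the JUN that is expressed steadily rather than induced, had 114, 105 and 108 CPM with the empty vector and 95.9, 98.6 and 80.2 with SLNCR. Its log2 fold change was -0.25 (SE 0.0738, adjusted p = 0.0312 by edgeR). JUNB, which often opposes JUN, had 52.6, 45.8 and 42.0 CPM with the empty vector and 43.1, 43.4 and 39.4 with SLNCR. Its groups overlapped, and its log2 fold change of -0.16 did not pass (adjusted p = 0.203 by edgeR).

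The AP-1 partners ATF3 and MAFF did not pass. ATF3, a stress-induced repressor, had 37.3, 37.7 and 33.2 CPM with the empty vector and 31.7, 31.4 and 28.6 with SLNCR. The groups did not overlap, and the log2 fold change was -0.24 (SE 0.0853, adjusted p = 0.0632 by edgeR). MAFF, a small MAF protein without an activation domain, stood at 17.3 ± 0.933 CPM with the empty vector and 15.9 ± 1.5 with SLNCR (SD, n = 3), a log2 fold change of -0.12 (adjusted p = 0.437 by edgeR).

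**Figure D1:**
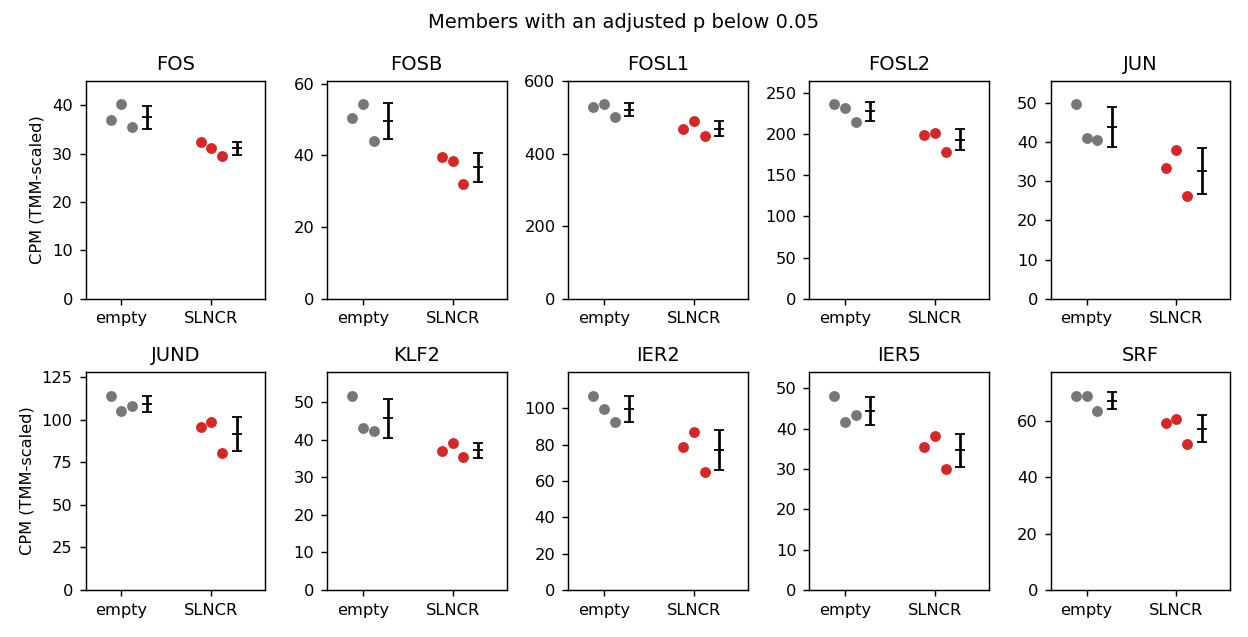
CPM (TMM-scaled) of the 10 members with an adjusted p below 0.05, 1 panel per gene, with the empty vector libraries in grey and the SLNCR libraries in red, in replicate order 1 to 3. Bars give the mean and SD of 3 libraries and each axis starts at 0. In every panel all red points lie below all grey ones, and the gaps are small beside the levels.

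EGR1 was the only EGR gene tested, since EGR3 had too few counts and EGR2 was not analysed here. This zinc finger factor is a direct target of SRF, and its upstream sequence carries a pair of CArG boxes. It had 35.9, 26.3 and 31.3 CPM with the empty vector and 25.1, 27.4 and 29.9 with SLNCR. The groups overlapped and the spread within each was wide, and the log2 fold change of -0.19 (SE 0.108) did not pass (adjusted p = 0.219 by edgeR). EGR3 had 4, 10 and 2 counts with the empty vector and 5, 5 and 3 with SLNCR, a level at which no difference was detectable.

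The NR4A orphan nuclear receptors did not move together, and none of the 3 passed. NR4A2 had 3.79, 4.41 and 4.27 CPM with the empty vector and 2.76, 3.08 and 2.67 with SLNCR, a log2 fold change of -0.54 (SE 0.208, adjusted p = 0.0761 by edgeR). NR4A3 had 2.69, 3.30 and 3.28 CPM with the empty vector and 4.28, 3.84 and 5.01 with SLNCR, a log2 fold change of 0.50 (SE 0.210, adjusted p = 0.103 by edgeR). The groups did not overlap in either gene, and the values lay on opposite sides of 0. Both had few counts, 33.7 and 36.2 on average, and the largest standard errors among the members. NR4A1 had 11.3, 14.65 and 14.2 CPM with the empty vector and 12.9, 11.2 and 10.3 with SLNCR. Its groups overlapped (log2 fold change -0.21, adjusted p = 0.279 by edgeR).

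Of the 5 KLF genes, zinc finger factors that bind GC-rich boxes, only KLF2 fell. KLF2 (ENSG00000127528, chr19:16324817-16327874) had 51.8, 43.1 and 42.4 CPM with the empty vector and 37.0, 39.2 and 35.3 with SLNCR. Empty vector 1 stood above the other controls, and the groups did not overlap. The log2 fold change was -0.30 (SE 0.0881, adjusted p = 0.0309 by edgeR). KLF4, one of the reprogramming factors, had 35.1, 36.9 and 35.6 CPM with the empty vector and 33.9, 32.1 and 28.2 with SLNCR. These groups were apart as well, but the log2 fold change of -0.19 did not pass (adjusted p = 0.131 by edgeR). KLF6, KLF9 and KLF10, the last of them induced by TGF-β, had log2 fold changes of -0.05, 0.07 and 0.04 with edgeR adjusted p-values of 0.567, 0.726 and 0.687. Their groups overlapped. KLF6 was at 87.3 ± 1.99 CPM with the empty vector and 84.2 ± 2.87 with SLNCR (SD, n = 3), and KLF9, at 14.1 ± 2.05 CPM with the empty vector and 14.8 ± 1.55 with SLNCR, was the KLF gene with the lowest counts.

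The IER genes encode short-lived immediate early proteins, and 2 of 3 fell. IER2 (ENSG00000160888, chr19:13150415-13154908) had 107, 99.5 and 92.3 CPM with the empty vector and 78.9, 87.2 and 65.2 with SLNCR, a log2 fold change of -0.37 (SE 0.0890, adjusted p = 0.0174 by edgeR). IER5 (ENSG00000162783, chr1:181088712-181092899), a single-exon gene that activates heat shock factor, had 48.2, 41.5 and 43.3 CPM with the empty vector and 35.5, 38.2 and 30.0 with SLNCR. Its log2 fold change was -0.36 (SE 0.0927, adjusted p = 0.0202 by edgeR). In both genes SLNCR 3 was the lowest and SLNCR 2 the nearest to the controls. Among the other genes that fell, FOSL1, FOSL2, JUN, JUND, KLF2 and SRF shared that order, and FOS and FOSB did not. IER3, a regulator of cell survival, was at 97.5 ± 6.31 CPM with the empty vector and 89.8 ± 5.52 with SLNCR (SD, n = 3). It had a log2 fold change of -0.12 (adjusted p = 0.224 by edgeR) and overlapping groups. It overlaps the antisense gene IER3-AS1. Opposite-strand genes also overlap JUNB (HOOK2), MAFF (PLA2G6) and BHLHE40 (BHLHE40-AS1), with 34.7, 37.8 and 12.8 counts on average. As for FOSB, reads of these pairs may not be told apart.

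None of the 5 feedback and mRNA decay regulators passed. DUSP1, the MAP kinase phosphatase, had a log2 fold change of -0.08, and TRIB1, a pseudokinase that targets proteins for degradation, one of 0.03. The decay factors ZFP36, ZFP36L1 and ZFP36L2, which bind AU-rich elements, had log2 fold changes of -0.15, 0.08 and -0.07. ZFP36L1 was at 362 ± 8.8 CPM with the empty vector and 383 ± 28.3 with SLNCR (SD, n = 3), and DUSP1 was at 55.3 ± 3.31 CPM with the empty vector and 52.5 ± 5.61 with SLNCR. The edgeR adjusted p-values of the 5 lay between 0.228 and 0.817. ZFP36 was the only one whose groups did not overlap, with 31.3, 33.8 and 29.2 CPM against 28.6, 29.2 and 27.2 (SLNCR).

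Of the 5 other regulators SRF alone fell. SRF (ENSG00000112658, chr6:43171299-43181507), which binds CArG boxes and has a pair of them upstream, had 68.9, 69.1 and 63.7 CPM with the empty vector and 59.2, 60.8 and 51.7 with SLNCR. The groups did not overlap, and the log2 fold change was -0.23 (SE 0.0748, adjusted p = 0.0457 by edgeR). CITED2, a CBP/p300-binding co-regulator, went the other way, with 105, 109 and 110 CPM against 115, 120 and 123 (SLNCR). Its log2 fold change of 0.15 (SE 0.0583) did not pass (adjusted p = 0.0872 by edgeR). MYC, the growth regulator, had -0.03, BHLHE40, a clock-linked repressor, 0.03, and the serum-induced kinase SGK1 0.08, with overlapping groups in each and edgeR adjusted p-values of 0.730, 0.849 and 0.396. MYC was at 82.4 ± 1.56 CPM with the empty vector and 80.6 ± 4.43 with SLNCR (SD, n = 3), a difference smaller than the spread of the SLNCR libraries.

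**Figure D2:**
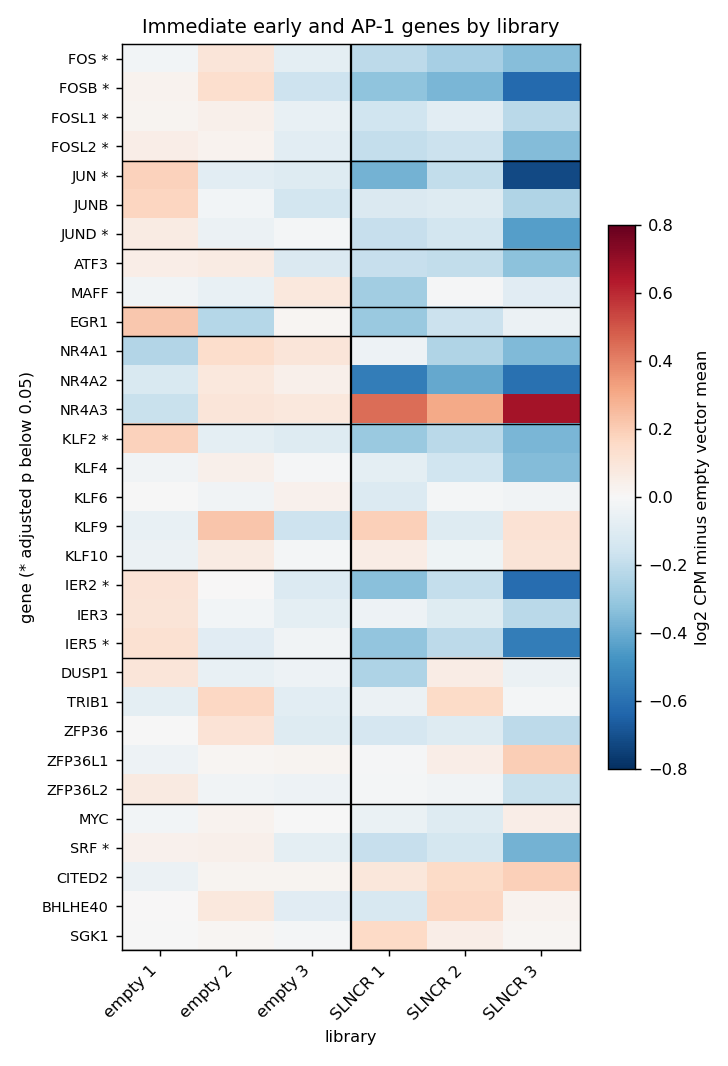
Difference of log2 CPM (prior count 2) from the mean of the empty vector libraries for the 31 tested members (rows, grouped by family, asterisk for an adjusted p below 0.05) in the 6 libraries (columns). Blue is lower and red higher, on a scale from -0.8 to 0.8. SLNCR 3 is the bluest column, while NR4A3 is red in all 3 SLNCR libraries.

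Per length of transcript the genes covered a wide range of levels with the empty vector. FOSL1 led with 313 RPKM (CPM per kilobase of the longest transcript), followed by ZFP36L1 with 113, IER3 with 72.2 and JUND with 58.6. FOSL1 thus accounted for most of the 378 RPKM summed over the FOS family, while FOS stood at 17.4 RPKM and FOSB at 13.1. JUND held the same place in the JUN family, with JUNB at 25.7 and JUN at 12.4 RPKM. At the low end were NR4A2 with 1.20, NR4A3 with 0.542 and EGR3 with 0.132 RPKM. Neighbours such as FOSL2 (34.0) and IER2 (33.9) did not differ beyond the spread of the libraries.

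Other features of the genes were read from GENCODE. The longest transcript had a single exon in 7 of the 32 members, or 21.9%, against 3.68% of 11728 tested protein-coding genes. The letters ATTTA, the core of AU-rich decay elements, occurred in the 3′ UTR of 30 of 32 members (93.8%) and of 74.6% of protein-coding genes. Summed over genes, there were 2.49 of them per kilobase of 3′ UTR in the members and 2.25 in protein-coding genes. Longest transcripts had a median of 3378 bases in the members and 3810 in protein-coding genes.

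Transcript GC content was set beside the families. It ran from 41.1% in SGK1 to 69.7% in JUND, with a median of 54.4% over the tested members and 47.9% over all genes with a value. These values, and the families and deciles below, rest on the longest transcript. Averaged over a gene's transcripts, FOS was at 59.9% instead of 52.6%, ZFP36L1 at 59.2% instead of 49.5% and KLF6 at 52.7% instead of 45.9%. The other tested members moved less, and some went down, such as TRIB1 (51.4% instead of 52.5%). In all tested genes the fold change fell as GC content rose, with a Pearson r of -0.64 and a Spearman rho of -0.69 across 12790 genes. Across the 31 members r was -0.44 and rho -0.50. These are descriptions over genes that share the same 6 libraries.

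The families followed this order loosely. The JUN family had the highest median GC content, 64.9%, and a median log2 fold change of -0.25. The FOS family had 55.5% and -0.25, EGR1 had 55.4% and -0.19, and the NR4A family had 47.9% and -0.21. The KLF family was lowest with 47.2% and -0.05, and the IER genes had 58.5% and -0.36. The feedback and decay group had 54.4% and -0.07, close to the FOS family in GC content with a smaller change. ATF3 and MAFF had 54.3% and -0.18, and the other regulators 52.0% and 0.03. Within the KLF family, KLF2 at 65.2% GC was the lowest in fold change, KLF4 at 55.0% came next, and KLF6, KLF9 and KLF10 at 45.9%, 46.3% and 47.2% lay near 0. The JUN family did not follow that order, since JUN at 56.7% had the largest fall and JUNB at 64.9% did not pass. NR4A2 and NR4A3 at 47.9% and 46.9% GC stood on opposite sides of 0.

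Genes were next divided into 10 deciles of GC content, from poorest to richest. In the 5 GC-poor deciles there were 7 members (ATF3, NR4A3, KLF6, KLF9, KLF10, CITED2 and SGK1), of which 0 fell in edgeR, against 0.594% of all genes there. Of these 7, NR4A3 and CITED2, both higher, had an unadjusted p below 0.05, as did ATF3. In the 5 GC-rich deciles there were 24 members, of which 10 (41.7%) fell, against 14.7% of all genes there. The median log2 fold change of those 24 was -0.19 and of all genes there -0.15. In the richest decile, with JUNB, JUND, MAFF, KLF2 and IER2, 3 of 5 fell and 31.1% of all genes were called lower. Against the genes of their own decile, 5 members lay below the lowest 10% (FOSB, JUN, ATF3, NR4A2 and IER5) and 1 above the highest 10% (NR4A3). Compared with the median of their decile, 15 members were below and 16 above.

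**Figure D3:**
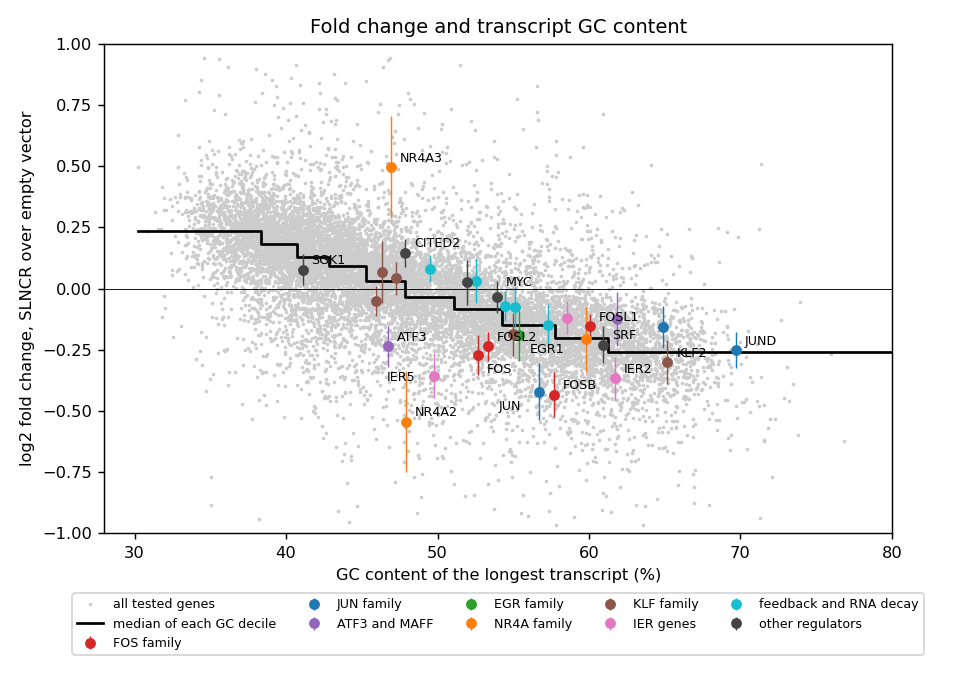
Log2 fold change of SLNCR over the empty vector against GC content of the longest transcript (%), with all tested genes in grey, the median of each GC decile as a black line and the members coloured by family with SE bars. The line runs from 0.24 in the poorest decile to -0.26 in the richest, and FOSB, JUN, ATF3, NR4A2 and IER5 lie well below it. Axes leave out 26 genes.

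When each library was corrected for its own curve of expression against GC content, edgeR called 0 of the 31 members, with 8 lower and 3 higher at an unadjusted p below 0.05. Of all tested genes 0.0156% were called and 15.1% had an unadjusted p below 0.05. SLNCR itself did not pass in this fit, at a log2 fold change of 3.38 (SE 0.201, adjusted p = 0.0538 by edgeR). The 0 calls among members therefore cannot show that their changes were absent. The members' median log2 fold change became 0.01, with 15 below 0 (49.5% of all genes were below 0) and 16 above, and r with GC content became 0.11. In 24 of the 31 genes the value moved towards 0. Without SLNCR 2 this correction left 2 calls, JUN and IER5, against 5.15% of all tested genes.

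The correction acted unequally on the genes that had fallen. IER5, at 49.8% GC, hardly moved (log2 fold change -0.32, SE 0.0838, adjusted p = 0.0942 by edgeR) and had the lowest adjusted p of any member. FOSB and JUN were at -0.26 and -0.27 after correction, with edgeR adjusted p-values of 0.119 and 0.172, FOS at -0.19 (0.251) and FOSL2 at -0.14 (0.144). IER2 was at -0.14 (adjusted p = 0.263 by edgeR). These 6 genes stayed between -0.14 and -0.32 with this correction. With GC content averaged over all transcripts of a gene, FOS was at -0.079, FOSL2 at -0.10 and IER2 at -0.11. With the longest transcript, KLF2 was at -0.02, SRF at -0.01, FOSL1 at 0.05 and JUND at 0.09. The last 4 had edgeR adjusted p-values of 0.909, 0.937, 0.527 and 0.416. So 8 of the 10 kept their sign, and their median over all 10 went from -0.29 to -0.14.

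Among the members that had not passed, ATF3 (-0.26), NR4A2 (-0.54), NR4A3 (0.48) and CITED2 (0.15) kept nearly the same log2 values after correction, with edgeR adjusted p-values of 0.143, 0.230, 0.285 and 0.155. All 4 have a GC content between 46.7% and 47.9%, close to the median of all genes. By family, the corrected median was -0.16 in the FOS family, 0.09 in the JUN family, -0.01 in the NR4A family and -0.02 in the KLF family. It was -0.14 in the IER genes, 0.05 in the feedback and decay group, -0.08 in ATF3 and MAFF and 0.07 in the other regulators. EGR1 was at -0.06.

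**Figure D4:**
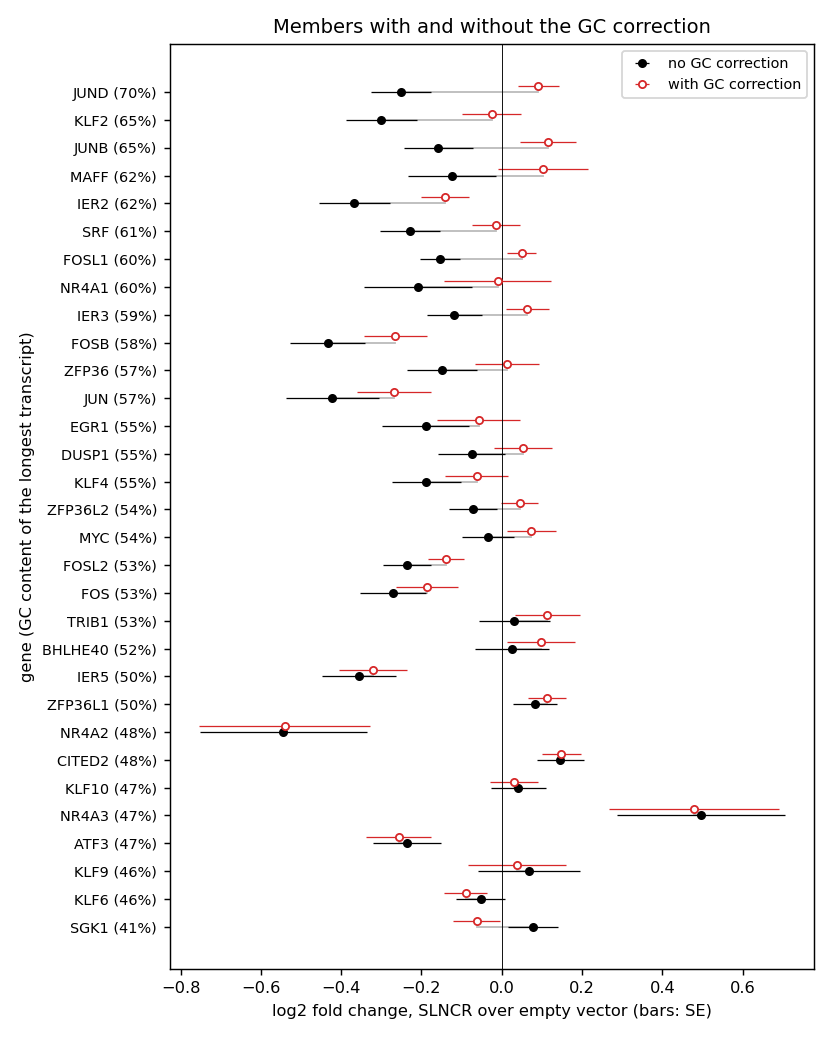
Log2 fold change with its SE for the 31 tested members before (black) and after (red, open) the GC correction, ordered by GC content from JUND at the top to SGK1 at the bottom. Genes of high GC content shift to the right, and IER5, NR4A2, NR4A3 and ATF3 barely shift.

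Library by library, the members' mean log2 value relative to the empty vector mean was 0.019, 0.024 and -0.043 in empty vector 1, 2 and 3 and -0.13, -0.091 and -0.19 in SLNCR 1, 2 and 3. The correlation of all genes with GC content in the same libraries was 0.24, 0.03 and -0.28, and -0.56, -0.46 and -0.60. In the SLNCR libraries the richest GC decile had medians of -0.23, -0.17 and -0.38. SLNCR 3 was therefore lowest and SLNCR 2 nearest to the controls in both measures. After the GC correction the members' mean was -0.03, -0.02 and -0.04 in SLNCR 1, 2 and 3, and their median was 0.019, -0.031 and 0.039.

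Markers of other cells and of RNA quality were followed in the same libraries. Of the 5 tested keratinocyte and epithelial markers 2 fell (KRT8 and KRT18), and KRT10, CLDN4 and DSP had log2 fold changes of -0.22, 0.025 and 0.058 that did not pass. The summed level of the whole list was 617 to 681 CPM with the empty vector and 503 to 557 with SLNCR, and its mean relative value was -0.13, -0.087 and -0.22 in SLNCR 1, 2 and 3. A list of 9 abundant nuclear non-coding RNAs, taken as a sign of RNA quality, had means of -0.10, -0.0063 and -0.27. None of the 9 passed, and their summed level overlapped between the groups, with 31862 to 36863 CPM with the empty vector and 31241 to 33460 with SLNCR. SLNCR 3 was lowest and SLNCR 2 nearest to 0 in both lists, as in the members. The 6 mesenchymal melanoma markers (VIM, AXL, NES, S100A4, S100A6 and CD44) shared that order, with means of -0.14, -0.036 and -0.15. Of these 6, 1 fell (VIM) and 1 rose (CD44). The tested melanocyte markers did not share that order, with means of -0.15, -0.093 and 0.085, nor did the fibroblast markers (0.071, -0.082 and 0.020) or the single tested immune marker (0.070, -0.041 and 0.25). The part of these lists in the members' fall was not tested.

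The wider pathway was read from 6 lists of genes that are no members. Of 102 tested genes 8 fell and 11 rose, against 7.67% lower and 8.84% higher among all tested genes. After the GC correction 0 were called, against 0.0156% of all tested genes. Without empty vector 1, empty vector 2 or SLNCR 1, 0 of the 102 were called, against at most 0.0154% of all tested genes. Without SLNCR 2 it was 30, against 26.1% of all tested genes. Among regulators of SRF and its ETS partners, 1 of 9 fell (the co-activator CREBBP, log2 fold change -0.19) and 1 rose (ELK4, 0.22). Among the JNK, p38 and ERK kinases that feed the response, 4 of 17 fell and 5 rose. The ERK kinase MAP2K2 (-0.49) and RPS6KA4 (-0.32) were among those that fell, and MAP2K6 (0.42) was among those that rose. MAP2K2 has a GC content of 60.9%, RPS6KA4 64.7% and MAP2K6 38.5%.

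Of 14 other AP-1 type leucine zipper genes, 0 fell and 1 rose (CREB5, log2 fold change 0.42). Of 12 other KLF and SP genes, KLF16 fell (-0.46), and KLF12 (0.40) and SP3 (0.19) rose. Their GC contents were 67.8%, 38.8% and 39.1%. Of 28 other early response genes 1 fell, IER5L (-0.46), a relative of IER5 with 65.0% GC, and 0 rose. Of 22 genes known as AP-1 targets, TGFB1 fell (-0.23), and CXCL8 (0.40), a neutrophil chemokine, and CD44 (0.20), the hyaluronan receptor, rose. The 3 genes had GC contents of 63.5%, 33.4% and 45.3%, and stood at 0.02, 0.13 and 0.14 after the GC correction. The calls in each of these lists stand beside 7.67% lower and 8.84% higher among all tested genes. The AP-1 target list had a median log2 fold change of -0.01, equal at 2 decimals to that of all tested genes.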

How the data were processed

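The authors deposited raw read counts per gene as 1 table, in whole numbers with unequal totals per library. The submitters' processing notes name cutadapt, STAR, DESeq2 1.24.07 and GRCh38. Counter, annotation and strand were not given in the sources used here. Rows that name no gene (1857 of 20238, 2.15% to 2.59% of counts) were set aside. Neighbouring rows that carried the same counts, with a mean of at least 10, formed 22 runs, of which 1 row each was used. Libraries were compared in edgeR 4.0.16 (R 4.3.3; robust quasi-likelihood F-test, TMM, filterByExpr, all 6 libraries, no covariates, two-sided), and the biological coefficient of variation was 5.65%. Log2 CPM used a prior count of 2. The labels' biological replicates are not described further, so p-values measure the spread between these samples. GC content was that of the longest GENCODE 29 transcript (99.95% of tested genes). For the GC correction, a loess curve (span 0.5, degree 2) was subtracted per library, fitted on genes with a mean log2 CPM above 1. Alternatives were other size factors and filters, DESeq2 1.42.0, limma-voom (limma 3.58.1), the replicate number as a block, other GC corrections and leaving out each library. The members and all gene lists were chosen with earlier results of these data known. All members are named, and so are up to 2 called genes per direction with the smallest adjusted p in each pathway list, except 1 gene that is not reported here.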

Additional observations from a re-analysis of the deposited data

How the results depend on the processing

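The count of 10 lower members was 10 with RLE or upper quartile factors, with no filter, with a mean of at least 50 counts and with limma-voom, and 7 with DESeq2 (FOSB, FOSL2, JUN, JUND, KLF2, IER2 and IER5). These fits called between 6.74% and 9.85% of all tested genes lower. The count was 0 with the GC correction, with GC content averaged over transcripts and with GC and length correction, 2 with GC correction and the replicate block (FOSB and IER5), 0 to 10 without 1 library, and 0 to 2 without 1 library with the GC correction. Of all tested genes, these fits called lower, in the same order, 0.00781%, 0.164%, 0.0781%, 1.93%, 0% to 12.8% and 0% to 2.89%. The median log2 fold change became 0.013 with the GC correction, 0.012 with the block added, 0.010 over transcripts and 0.020 with length, ran from -0.19 to -0.12 without 1 library, and from -0.014 to 0.030 without 1 library with the GC correction. The correlation with GC content was -0.55 with a mean of at least 50 counts, 0.11 with the GC correction, 0.11 with the block added, 0.039 over transcripts and 0.12 with length, ran from -0.48 to -0.36 without 1 library, and from 0.028 to 0.16 without 1 library with the GC correction. The pathway lists held 19 called genes, 0 with the GC correction, 5 with the block added, 1 over transcripts, 0 with length, and 0 to 30 without 1 library. Of all tested genes 16.5%, 0.0156%, 3.19%, 0.508% and 0.125% were called in the same order, and 0.00775% to 26.1% without 1 library. Same-numbered libraries deviated together with correlations of 0.075, 0.007 and 0.239, and empty vector 1 correlated best with SLNCR 2 (0.205), so the numbers were not taken as pairs. With the replicate number as a block 11 members were lower and 1 higher (ATF3 and CITED2 added), and 30 pathway genes were called. In all 3523 genes were called against 2112, or 27.5% against 16.5% of those tested. Signs turned with the GC correction in 10 members, and their log2 values follow in the order GC correction, block added, mean over transcripts, length added: FOSL1 0.050, 0.050, 0.049 and 0.059, JUNB 0.11, 0.12, 0.11 and 0.12, JUND 0.091, 0.093, 0.094 and 0.096, MAFF 0.10, 0.10, 0.096 and 0.094, IER3 0.064, 0.064, 0.049 and 0.082, DUSP1 0.053, 0.050, 0.036 and 0.056, ZFP36 0.013, 0.012, 0.084 and 0.020, ZFP36L2 0.044, 0.044, 0.027 and 0.037, MYC 0.074, 0.074, 0.14 and 0.073, and SGK1 -0.063, -0.065, -0.017 and -0.069. With the mean over transcripts NR4A1 (0.010), KLF6 (0.012), KLF9 (-0.0052) and KLF10 (-0.033) turned as well. Leaving out 1 library alone turned the sign of KLF9, DUSP1, TRIB1, MYC and BHLHE40, and the other turns came with the GC correction. Over both kinds of fit without 1 library the log2 values ran from -0.19 to 0.069 for FOSL1, -0.23 to 0.17 for JUNB, -0.31 to 0.13 for JUND, -0.19 to 0.19 for MAFF, -0.32 to 0.064 for NR4A1, -0.30 to 0.040 for EGR1, -0.35 to 0.041 for KLF2, -0.27 to 0.0093 for SRF, -0.16 to 0.092 for IER3, -0.15 to 0.14 for DUSP1, -0.20 to 0.067 for ZFP36, -0.099 to 0.072 for ZFP36L2, -0.075 to 0.13 for MYC, -0.11 to 0.11 for SGK1, -0.043 to 0.19 for KLF9, -0.035 to 0.20 for TRIB1 and -0.053 to 0.17 for BHLHE40. The GC correction removes the trend by construction; the cause of the other changes was not tested. Depth limits NR4A2, NR4A3 and EGR3, whose counts are low.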
